A study of Mus musculus with 2 samples.

Results

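Lmo4 encodes a small nuclear protein built of LIM domains, zinc-binding folds that hold other proteins and do not contact DNA. The expression of Lmo4 and of 6 genes whose products work in LIM complexes was examined in sorted progenitors of innate lymphoid cells (ILCs). The genes were chosen by name from the platform annotation of the array: Lmo4, its closest relative in blood cells Lmo2, the scaffold Ldb1, the scaffold stabilisers Ssbp2 and Ssbp3, and the DNA-binding factors Lyl1 and Tal1. They are 7 of the 19505 named genes, each was measured by 1 probe set, and all 7 are described below. The set was chosen with the large difference of Lmo4 between the arrays already known, so the values of Lmo4 and of its partners are given as a description, with no test.

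RNA was measured on 2 arrays. The array labelled knockout held RNA of progenitors from mice labelled as deleted for Yeats4, and the wild-type array held RNA of progenitors from wild-type littermates. Yeats4 encodes a reader of acetylated histones that belongs to chromatin-modifying complexes. In both groups the cells were sorted as lineage-negative, CD127-positive and α4β7-positive with intermediate c-Kit and Sca-1. The labels used here give neither the age and number of the mice nor the promoter or Cre line behind the deletion. Each genotype is represented by 1 array, so the differences below carry no replicate error and no p-value.

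In the complexes that LMO proteins form, LDB1 joins to itself and so brings together LIM proteins that sit on different stretches of DNA. SSBP proteins bind LDB1 and protect it from degradation. LMO2 links LDB1 to the basic helix-loop-helix factors TAL1 or LYL1, which bind E-boxes with E proteins, and to GATA factors. This assembly is best known from blood stem cells and red cell precursors. LMO4 binds LDB1 as well and can compete with LMO2 for it, and a published study of Yeats4 named Lmo4 as a gene it activates in ILC progenitors. These arrays may come from that work, so the difference in Lmo4 is not independent evidence for it.

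The sequence just before the start sites of Lmo4 is shown because this gene has the largest difference among the members, and that of Tal1 because it holds the one match among the member windows to the paired motif of the LMO2 complex. Each is the 250 bases before an annotated start, from RefSeq on build GRCm38.p6, read in the direction of the gene. Capitals mark E-boxes (CANNTG, the same on both strands) and GATA (on either strand).
Lmo4, start site 1, chr3:144205256-144205505, minus strand: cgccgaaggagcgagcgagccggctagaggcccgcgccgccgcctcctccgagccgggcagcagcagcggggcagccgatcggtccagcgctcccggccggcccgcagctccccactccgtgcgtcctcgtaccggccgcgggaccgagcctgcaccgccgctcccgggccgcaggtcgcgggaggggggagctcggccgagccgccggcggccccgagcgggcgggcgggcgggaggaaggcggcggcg
Lmo4, start site 2, chr3:144202397-144202646, minus strand: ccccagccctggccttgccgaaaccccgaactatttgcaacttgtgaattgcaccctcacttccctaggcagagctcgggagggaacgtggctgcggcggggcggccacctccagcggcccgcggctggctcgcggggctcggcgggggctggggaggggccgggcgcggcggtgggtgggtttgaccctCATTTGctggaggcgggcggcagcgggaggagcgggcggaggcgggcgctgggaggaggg
Tal1, start site 1, chr4:115056176-115056425, plus strand: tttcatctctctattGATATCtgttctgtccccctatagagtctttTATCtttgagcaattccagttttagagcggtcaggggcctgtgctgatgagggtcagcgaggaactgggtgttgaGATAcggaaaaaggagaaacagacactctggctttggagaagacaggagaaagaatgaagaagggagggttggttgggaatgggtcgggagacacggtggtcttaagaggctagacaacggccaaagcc
Lmo4 has 3 listed start sites, and the third window shares 186 bases with the second. The starts of the first and second windows lie 2859 bases apart. The Lmo4 windows are rich in G and C, at 82.4%, 73.6% and 76.8% of bases, against a median of 52.4% over 32851 windows of the same length. The first Lmo4 window holds 44 CG dinucleotides against a median of 6. It contains no E-box and no GATA, while each of the other windows contains 1 E-box and no GATA. E-boxes stand in 66.2% of all windows and GATA in 53.6%, so either motif is common. Of the 12 windows listed for 6 members, 5 hold an E-box, with that shared Lmo4 site counted in 2 of them, and 3 hold GATA. The paired motif CTGNNNNNNNNGATA, an E-box end and a GATA site at fixed distance, stands in 1.91% of all windows and 1 time in the first Tal1 window. That window holds no full E-box, so the CTG of its match is not the end of a CANNTG. Lmo2 has no window in the table. A match describes letters only and says nothing of binding.

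Lmo4 was 5.50-fold lower on the array labelled knockout. It read 9.01 there, against 11.47 on the wild-type array, both on the log2 scale of the deposited values. The difference, knockout-labelled minus wild-type, was -2.46. On the wild-type array 6 of the 29129 probe sets read higher than Lmo4 and none of them was a named gene, whereas on the array labelled knockout 342 probe sets and 217 named genes did. Readings of different probe sets also depend on how well each probe set binds, so these are positions on the array scale and not an order of transcript amounts. Lmo4 stayed far above background on both arrays. The 95th percentile of the 5222 negative control probe sets was 4.73 on the array labelled knockout and 4.80 on the wild-type array, and 0.440% and 0.0192% of negative controls reached the reading of Lmo4 there.

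**Figure D1:**
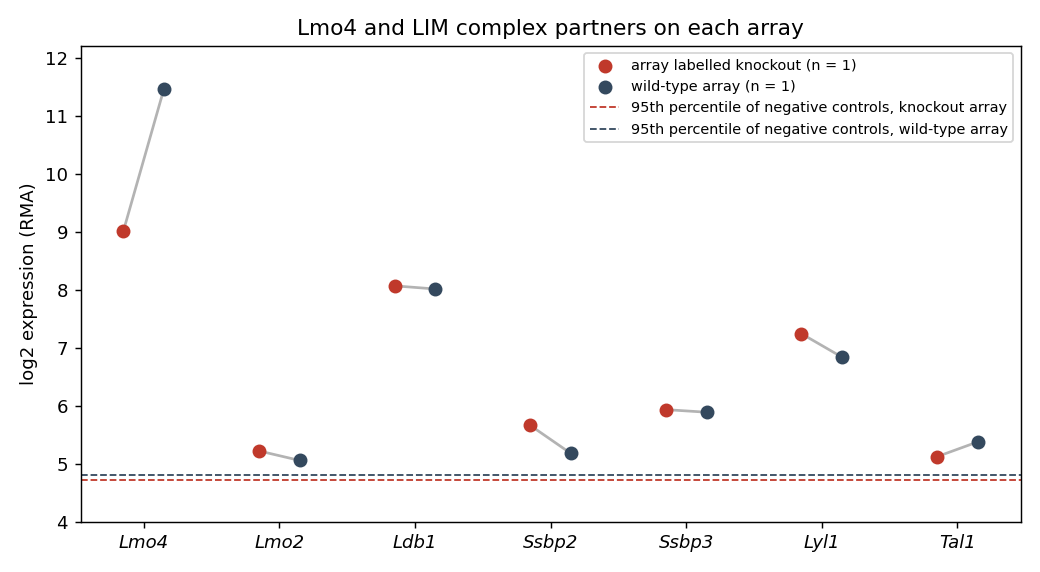
The log2 expression value of each member on the array labelled knockout (left point of each pair) and the wild-type array (right point), 1 array each, with dashed lines at the 95th percentile of the negative control probe sets of each array. Lmo4 drops to 9.01 on the array labelled knockout, against 11.47 on the wild-type array, while the 6 partners lie close to their wild-type values.

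Genes of like level did not differ as Lmo4 did. Among the 500 genes nearest to it in mean level, which covered mean levels of 7.93 to 11.45, the spread of differences (scaled median absolute deviation) was 0.17 and the median 0.13. None of the 500 was as low as Lmo4, and the nearest was at -1.78. The difference of Lmo4 was 14.8 times that spread. Of the 79 other genes that read 10 or more on the wild-type array, the lowest difference was -0.30 and the highest 0.55. The 11 negative controls within 0.5 of the mean level of Lmo4 had differences with an SD of 0.09. The 38 negative controls with a mean of 8 or more ranged from -0.59 to 0.04, and the 94 positive controls at that level from -0.94 to 0.56.

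At least 2-fold lower values were rare among the 10881 genes whose mean level reached the median of all probe sets (2.88), with 85 genes or 0.781%, while 170 genes or 1.56% were at least 2-fold higher. The split between directions depends on the scaling, with 118 lower and 123 higher genes after centring, and 23 lower and 19 higher once readings under 4.80 were set to that level. Among the 469 genes with a mean level of 8 or more, 4 or 0.853% were at least 2-fold lower and 1 or 0.213% higher. The 4 were Lmo4 and, named after their values were seen, the eosinophil genes Ear6 (-1.78) and Prg2 (-1.48) and the myeloid secreted factor Retnlg (-1.23). The 1 higher gene was the ILC progenitor marker Id2 (1.23). Of the 7 members only Lmo4 was past 2-fold, and its choice rested on that same difference.

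**Figure D2:**
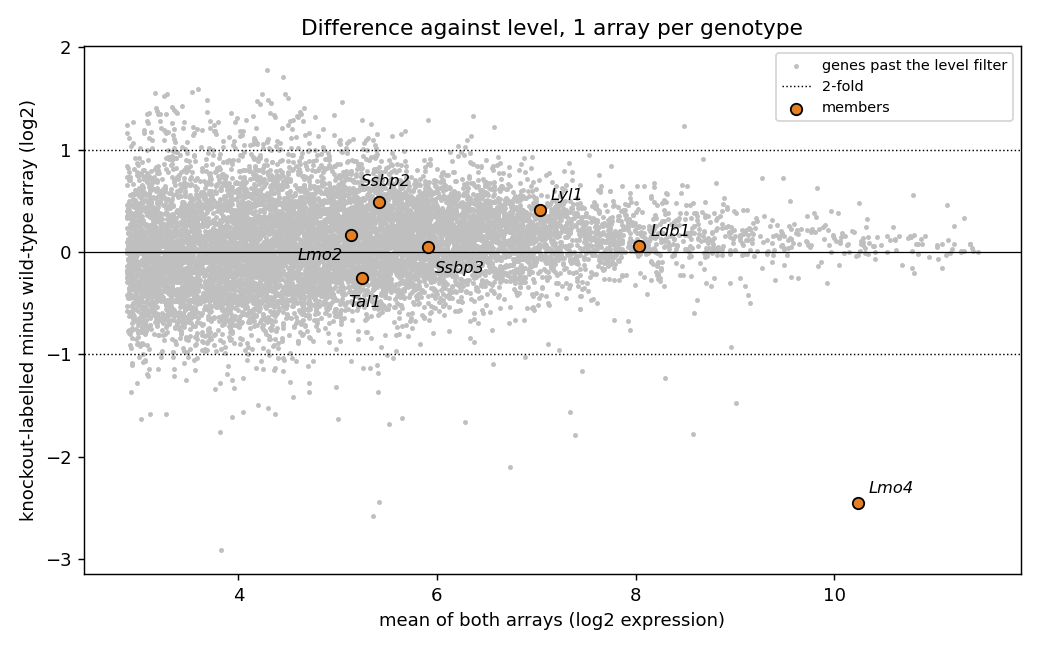
The difference of each gene past the level filter (knockout-labelled minus wild-type array, log2) against the mean of both arrays (log2), with 2-fold marked by dotted lines and the 7 members as orange points. Lmo4 stands alone at a mean level of 10.24 with a difference of -2.46, and the 6 partners lie inside the cloud of other genes.

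The relative Lmo2, which is the bridge between LDB1 and TAL1 in blood stem cells, read 5.22 on the array labelled knockout and 5.06 on the wild-type array. Its difference of 0.16 was smaller than the local spread of 0.34, and 238 of the 500 genes nearest in level were at least as high. Lmo2 lay not far above background, since 3.20% of negative controls on the array labelled knockout and 4.27% on the wild-type array read at least as high. The difference of Lmo4 was thus 2.62 below that of Lmo2 on the log2 scale (-2.62), a value that a common shift of either array leaves unchanged.

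The scaffold gene Ldb1 read 8.06 on the array labelled knockout and 8.01 on the wild-type array, so the difference was 0.05 beside a local spread of 0.21. The difference of Lmo4 minus that of Ldb1 was -2.51. The transcript of the shared scaffold therefore differed little between arrays on which that of its binding partner differed 5.50-fold. The direction for Ldb1 is not settled, because it was -0.09 after a loess correction on level, -0.06 after quantile normalization of the table and -0.03 after centring on the median gene.

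The scaffold stabilisers differed from one another in value. Ssbp2 read 5.66 on the array labelled knockout and 5.18 on the wild-type array, 1.40-fold higher, with a difference of 0.48. That was 1.23 times its local spread of 0.39, and 94 of the 500 genes nearest in level were at least as high. Measured from the median of those genes (0.11), Ssbp2 was at 0.38, within that spread. Ssbp3 read 5.93 and 5.89 on the array labelled knockout and the wild-type array, so the difference was 0.04 beside a local spread of 0.33, and it was under 0 after centring (-0.04), quantile normalization (-0.08) and loess correction (-0.10). Ssbp2 minus Ssbp3 was 0.44 on the log2 scale, which is near the spread of either and has no test.

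Among the DNA-binding partners, Lyl1 and its relative Tal1 had differences of opposite sign. Lyl1, which with Tal1 sustains blood stem cells, read 7.24 on the array labelled knockout and 6.83 on the wild-type array. Its difference of 0.41 was 1.56 times the local spread of 0.26, and 77 of 500 genes of like level were at least as high. Measured from the median of those genes (0.15), Lyl1 was at 0.25, within that spread. Tal1, the stem cell and red cell factor, read 5.12 on the array labelled knockout and 5.38 on the wild-type array. Its difference was -0.26 beside a local spread of 0.34, and 70 of 500 genes of like level were as low. Measured from the median of those genes (0.11), Tal1 was at -0.37, slightly past that spread. Lyl1 minus Tal1 was 0.66. Both kept their sign under centring, loess correction and quantile normalization.

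**Figure D3:**
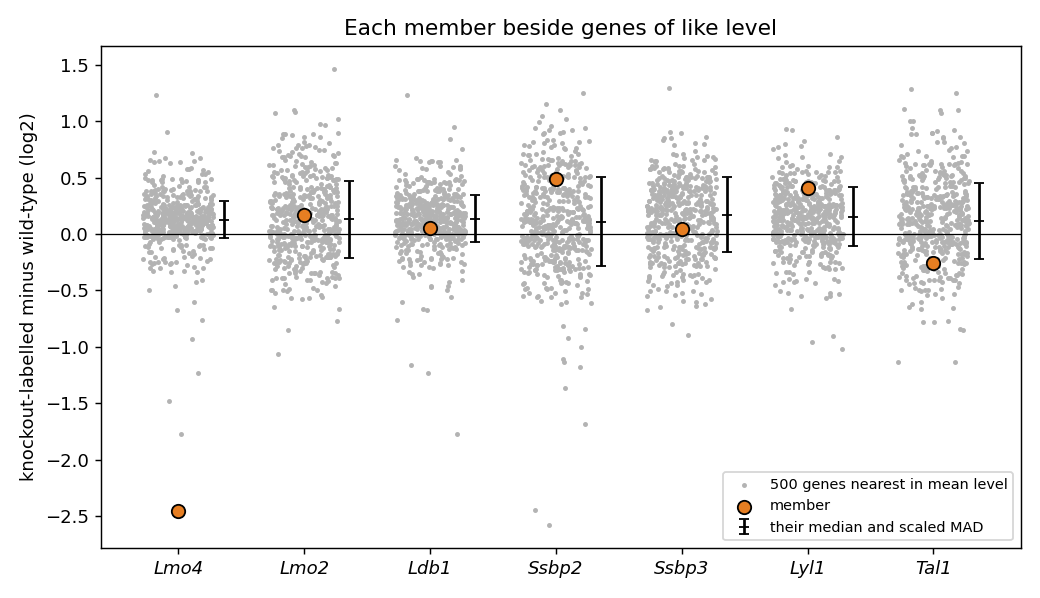
The difference of each member (orange; knockout-labelled minus wild-type array, log2) beside those of the 500 genes nearest in mean level (grey), with the median and scaled median absolute deviation of those genes as a bar to the right. Lmo4 is below all 500 of its genes, and the other 6 members lie among theirs.

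The 6 partners had a median difference of 0.11 and a range of -0.26 to 0.48, and with Lmo4 the median of the 7 members was 0.05. After loess correction these medians were -0.02 and -0.09, so neither has a settled sign. The median of all 10881 genes past the filter was 0.08. The absolute difference had a median of 0.21 over the partners and of 0.26 over all those genes. No partner reached 1.5-fold in either direction, a size that 5.16% of all genes reached downwards and 9.16% upwards. Negative controls within 0.5 of a partner's mean level often differed at least as far, in either direction. The counts were 47 of 121 for Ssbp2, 11 of 27 for Lyl1, 89 of 142 for Tal1 and 112 of 157 for Lmo2. For Ldb1 and Ssbp3 they were 12 of 15 and 74 of 78. All 7 members were above the negative control level on both arrays, though Lmo2, Tal1 and the wild-type reading of Ssbp2 (5.18) lay close to it. On that array 3.91% of negative controls read at least as high as Ssbp2.

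Other genes of the LIM system were taken from lists written with earlier results of these data known. The further LIM-only and LIM homeodomain genes, which encode mostly transcription factors of embryonic development, were largely at background, with 12 of 14 under the negative control level of 4.80 on both arrays. Of the 6 past the level filter none was 2-fold different, 5 lay below 0 and the median was -0.45. The lowest were Lhx8 (-0.88) and Isl2 (-0.68), both at background. Lmo1, the relative of Lmo2 known from T cell leukaemia, read 5.36 on the array labelled knockout and 5.50 on the wild-type array.

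The further stabiliser Ssbp4 was at 7.33 on the array labelled knockout and 7.40 on the wild-type array. Rlim, the ubiquitin ligase that marks LDB1 and LIM proteins for degradation, was at 5.77 and 5.99 on the array labelled knockout and the wild-type array, and 73 of 500 genes of like level were as low as its difference of -0.22. Ldb2, the relative of Ldb1, was at background on both arrays. Ssbp4 and Rlim differed by less than 1.5-fold. So did most genes past the filter, since 5.16% reached that size downwards and 9.16% upwards.

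Of the E proteins, GATA factors and other partners of TAL1 and LYL1, all 11 that the annotation names passed the level filter. None reached 1.5-fold, a size that 5.16% of all genes past the filter reached downwards and 9.16% upwards. Of the 11, 6 were above 0 and 5 below, and the median was 0.03, which was -0.05 to -0.11 under the scaling alternatives. The E protein genes Tcf3, Tcf4 and Tcf12 differed by -0.31, 0.20 and -0.02. Of these Tcf3 was the farthest from its genes of like level, with 26 of 500 as low. Gata2, a factor of stem cells and mast cells, was at 0.25, Gata1, the red cell factor, at 0.05 (-0.07 after loess correction), and the corepressor Cbfa2t3 at -0.30. Erg (0.37), Runx1 (0.22) and Fli1 (0.03, or -0.11 after loess correction), which bind beside TAL1 in stem cells, showed no 1.5-fold difference either.

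Proteins that bind LMO4 itself were read from 5 genes. Brca1, a DNA repair gene whose product binds LMO4, read 5.42 on the array labelled knockout and 4.67 on the wild-type array, a difference of 0.74 with 27 of 500 genes of like level as high. Its wild-type reading did not reach the negative control level, so it was at least 1.53-fold higher against that level, taking the other reading as exact. The cytokine receptor chain Il6st (0.13) and the deacetylase Hdac2 (0.15) lay within their local spreads and were at -0.01 after loess correction. Deaf1 (0.32) was at background on both arrays, as was Snai2, which was under the level filter.

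Of 11 annotated genes known as targets of the LMO2 complex in stem and red cells, 9 passed the level filter, with a median of 0.21 that was 0.08 to 0.13 under the scaling alternatives. Kit, the stem cell factor receptor, was at 7.77 on the array labelled knockout and 7.12 on the wild-type array, 1.57-fold higher, and 11 of 500 genes of like level were as high. The sort selected on its protein. Meis1, a stem cell homeobox gene, read 5.82 on the array labelled knockout and 5.22 on the wild-type array. Its difference was 0.61, and 40 of 500 genes of like level were as high. Kit and Meis1 were the 2 genes of the list past 1.5-fold upwards, and none was past it downwards. Of all genes past the filter, 9.16% reached that size upwards and 5.16% downwards. The red cell genes Klf1 and Alas2 were at background on both arrays, and Slc4a1 (-0.44) on the one labelled knockout.

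LIM domain proteins outside these complexes, mostly of the cytoskeleton, had a median of -0.02 over the 32 of 48 past the filter, or -0.11 to -0.09 under the scaling alternatives. Past 2-fold there was 1 lower gene and no higher one. It was Lpxn, an adhesion protein of leukocytes, at 3.57 on the array labelled knockout and 5.16 on the wild-type array (-1.58). Its reading of 3.57 did not reach the negative control level, so it was at least 1.28-fold lower against that level. Lima1 (0.98) and Mical3 (0.60) followed in size, and both were at background on both arrays. Among the LIM domain genes listed here, Lmo4 was the one past 2-fold with both readings above the negative control level.

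**Figure D4:**
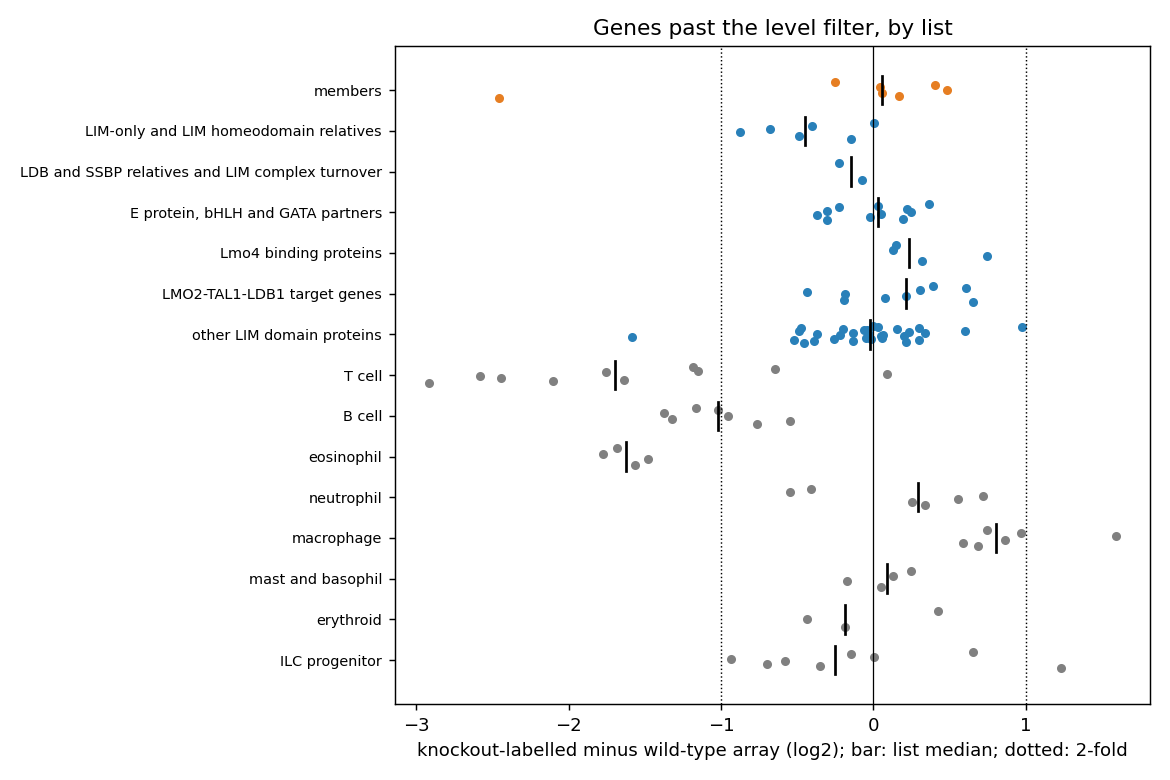
The difference of each gene past the level filter (knockout-labelled minus wild-type array, log2; 1 point per gene) by list, with the list median as a bar and 2-fold as dotted lines; orange marks the members, blue other LIM-related lists and grey cell type marker lists. Lmo4 is the only point of the members past 2-fold, and the T cell, B cell and eosinophil markers lie to the left, with list medians of -1.69, -1.02 and -1.62.

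The 5 genes closest to Lmo4 in the plane of the readings on both arrays were S100a9, 2900060B14Rik, Tubb5, H4c12 and H4c11. The nearest, S100a9, lay 1.58 log2 units away and differed by -0.30, and the other 4 differed by -0.12 to -0.03. No gene thus paired a level like that of Lmo4 with a difference like its own. By measured difference 2 genes past the filter were lower, the T cell genes Cd3d (-2.92) and Cd8b1 (-2.58), both of which were at background on the array labelled knockout. Of the 10 protein-coding genes that flank Lmo4 on its chromosome, a list added after the data were seen, 7 were named by the annotation and past the filter. They had a median of 0.17 and ranged from -0.46 for Gbp2 to 1.19 for Clca3a1, both at background, and Pkn2 (0.26), Selenof (0.19) and Sh3glb1 (-0.09) were the ones above it.

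Of the markers of other blood cells, those of T cells, B cells, eosinophils and macrophages moved with the genotype label. Of the 10 T cell markers 9 were lower and 8 at least 2-fold lower as measured, of which Cd3e, Cd3g, Cd8a, Cd8b1 and Cd28 were 2-fold lower also against the negative control level. Their summed linear signal was 221 on the array labelled knockout and 702 on the wild-type array. All 7 measured B cell markers were lower (4 at least 2-fold as measured, 2 of them also against that level), with sums of 634 and 1200 on the array labelled knockout and the wild-type array. All 4 measured eosinophil markers were at least 2-fold lower, with sums of 637 on the array labelled knockout and 1933 on the wild-type array. All 6 macrophage markers were higher, with sums of 387 on the array labelled knockout and 222 on the wild-type array. Of these Cd5l (1.59), the one past 2-fold, and Mertk (0.75) were at background on both arrays. The 6 neutrophil markers did not move one way, with 4 above 0 and Ltf (-0.55) and Camp (-0.41) below. The 4 were Ctsg (0.72), Prtn3 (0.55), Elane (0.34) and Mpo (0.25). Of these Ctsg was past 1.5-fold, with 3 of 500 genes of like level as high. All 6 were bright on both arrays, with sums of 8716 on the array labelled knockout and 6841 on the wild-type array. Elane read 11.47 on the array labelled knockout and 11.14 on the wild-type array. Erythroid markers (median -0.19 over 3 genes) and mast cell and basophil markers (0.09 over 4 genes, or -0.05 after loess correction) held no 2-fold difference. The part of these cells in the difference of Lmo4 was not tested, and fewer cells that carry Lmo4 cannot be told apart from less Lmo4 RNA per cell. Of the ILC progenitor markers, all 8 passed the filter, 5 were lower and 3 higher, and the median was -0.25. Among them were Id2 at 9.11 and Nfil3 at 8.49 on the array labelled knockout, against 7.88 and 9.43 on the wild-type array. Id2 (1.23) was the 1 marker of this list past 2-fold. Il7r, whose product CD127 was used in the sort, was at -0.70 with 4 of 500 genes of like level as low, and Tox at -0.58 with 3 of 500. Itgb7 was at -0.14. Itga4 counts among the 3 higher at 0.004, but was at -0.08 after centring, -0.14 after loess correction and -0.11 after quantile normalization. Zbtb16, at 4.68 and 5.04 on the array labelled knockout and the wild-type array, was at background on the array labelled knockout.

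Yeats4 itself read 5.90 on the array labelled knockout and 5.96 on the wild-type array. The position of its probes with respect to the deleted segment is not given, so this reading does not check the genotype label. For this reason the array is named by its label throughout.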

How the data were processed

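The authors deposited 1 log2 value for each probe set on each array. Affymetrix Power Tools and RMA produced them, per the submitters' processing notes (background correction, quantile normalization between arrays and summary of probes into probe sets). Differences are therefore relative to each array's whole distribution, and changes in the total RNA of a cell would not show. Genome build and tool versions were not given in the sources used here. A Mouse Gene 2.0 array is named in the design text, whereas probe sets carry the names of another design, whose annotation gave the gene names.

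A gene was read from its probe set of highest mean, and the RefSeq gene table held the identifiers of all 19505 genes. Genes whose mean level reached the median probe set (2.88) entered the comparison. Each difference was set beside the 500 genes nearest in mean level. A gene under 4.80, the higher of the 95th percentiles of negative controls, on both arrays is called at background. Where only 1 array was under it, a fold is a lower limit. The number of arrays limits the precision.

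The members, lists and naming rule were chosen with earlier results of these data known. The rule named all members, Yeats4, the 5 genes nearest to Lmo4, and genes of the listed groups by size of difference or by role. Some examples were chosen after their values were seen. Of the listed genes, 11 were not found in the annotation, among them Gata3 and Rbbp8, and were not analysed here. Alternatives were other level filters, centring on the median, loess on level (span 0.3), quantile normalization, raising values to the negative control level, the mean of probe sets, a 1.5-fold threshold, and 200 or 1000 genes of like level. The code for the local spread and fold counts was tested on simulated data with normal noise and shifts well past 2-fold. That checks the code and not the precision of 1 array per genotype. Computations used Python 3.11.15, numpy 2.4.6, pandas 2.3.3, statsmodels 0.14.6 and matplotlib 3.10.9. Sequences are from RefSeq on GRCm38.p6.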

Additional observations from a re-analysis of the deposited data

How the results depend on the processing

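Lmo4 stayed lowest among its genes of like level in all 10 alternatives, and its difference of -2.46 was -2.54 after centring, -2.57 after loess and -2.49 after quantile normalization. Its local spread was 0.13 with 200 genes and 0.20 with 1000. Level filters, raised values and the mean of probe sets left each member as it was, since each has 1 probe set and lies above every threshold. They also left the local spread of Lmo4 at 0.17, so its rank under them is not a further check. Centring, loess and quantile normalization moved no member by more than its local spread, and Ldb1 and Ssbp3 changed sign under all 3. Lmo2 ranged from 0.06 to 0.16, Ssbp2 from 0.36 to 0.48, Lyl1 from 0.25 to 0.41 and Tal1 from -0.37 to -0.26. The partner median ranged from -0.02 to 0.11. The count of genes that differed 2-fold, 255 in both directions together, was 60 with the filter at the 75th percentile, 63 with the filter at the negative controls and 42 with raised values, and 1558 passed 1.5-fold. The stricter filters test fewer genes by construction. No paired analysis was possible because each genotype has 1 array. Signal over background does not limit the statement on Lmo4, whereas Lmo2, Tal1 and the wild-type reading of Ssbp2 lie close to background. The number of arrays limits the statement on Lmo4. Also, fewer cells that carry Lmo4 cannot be told apart from less Lmo4 RNA per cell.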
